A study of Drosophila melanogaster with 6 samples.

Results

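Of the 9412 H3K4me3 peaks on the chromosome arms of Drosophila melanogaster Kc167 cells, 1531 overlapped no peak of the histone kinase JIL-1, of H3K9acS10ph or of H3K27acS28ph. They are called bare peaks here. They were chosen by their measured overlap, at 1 bp, with the JIL-1, H3K9acS10ph and H3K27acS28ph peaks, so that their lack of these peaks is no result and their number only describes the choice. Bare peaks made up 16.3% of the arm H3K4me3 peaks (95% Wilson interval 15.5 to 17.0). They fell into 2 classes. In the first, 364 bare peaks overlapped H3K4me1 or H3K27ac. In the second, 1167 overlapped neither, so that H3K4me3 was the only one of the 6 lists with a peak there. Of all arm H3K4me3 peaks, 67.9% overlapped JIL-1, 72.6% overlapped H3K9acS10ph and 29% overlapped H3K27acS28ph.

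Kc167 is a line derived from female late embryos and was grown without serum. Chromatin was fixed with formaldehyde and immunoprecipitated with an antibody to H3K4me3, H3K4me1, H3K27ac, JIL-1, H3K9acS10ph or H3K27acS28ph, with 1 library each and no replicates. All 6 libraries come from the same line, the labels name no treatment, and every difference given here is between sets of peaks within these lists. The 6 lists hold 49322 peaks. The arms are 2L, 2R, 3L, 3R, X and chromosome 4, in coordinates that are 1-based and carry the scaffold names of release 5 of the fly genome. The depth of the libraries is unknown, so a place with no called peak was not detected in that library and may still carry the mark. Intervals cover counting error only, and neighbouring peaks are not independent.

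H3K4me3 is deposited at the starts of transcribed genes, where it marks the first nucleosomes past the promoter. H3K4me1 is typical of enhancers and of the flanks of active promoters, and H3K27ac is a mark of active promoters and enhancers alike. JIL-1 is the kinase of Drosophila that phosphorylates histone H3 during interphase. In the 2 phosphoacetylated forms an acetylated lysine stands beside a phosphorylated serine on the same H3 tail, and such tails have been linked to active transcription.

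Bare peaks were weak and narrow among the H3K4me3 peaks. The authors' score of a peak, taken as -10 times log10 of the caller's p so that higher is more significant, had a median of 77.6 in bare peaks, against 595 in the other 7881 arm H3K4me3 peaks. The middle 50% of bare peaks scored 61.6 to 115, against 118 to 3100 for the others. The lowest score listed was 50.02, so most bare peaks stood close to the floor of the list, and 1038 of them (67.8%) scored under 100, against 20.6% of the others. Only 92 bare peaks (6.01%) scored above 266, the median of all arm H3K4me3 peaks, against 58.5% of the others, a difference of -52.5 percentage points (95% Newcombe interval -54.1 to -50.8). Median width was 887 bp in bare peaks and 1337 bp in the others. Of bare peaks 16.7% were wider than the median of all arm H3K4me3 peaks (1243 bp), against 56.5% of the others, a difference of -39.8 points (-41.9 to -37.6). This difference was -23.2 points when only the upper 50% of H3K4me3 peaks by score was kept. It was -23.5 points when every list was cut to its upper 50%. A wider peak has more chance of touching another list, so the choice itself favours narrow peaks. The differences in width are therefore descriptions only. Score rose with width, with median widths of the other peaks of 870 bp in the lowest score quartile and 2076 bp in the highest. The differences in score, and the shares by score decile below, are therefore descriptions too.

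**Figure D1:**
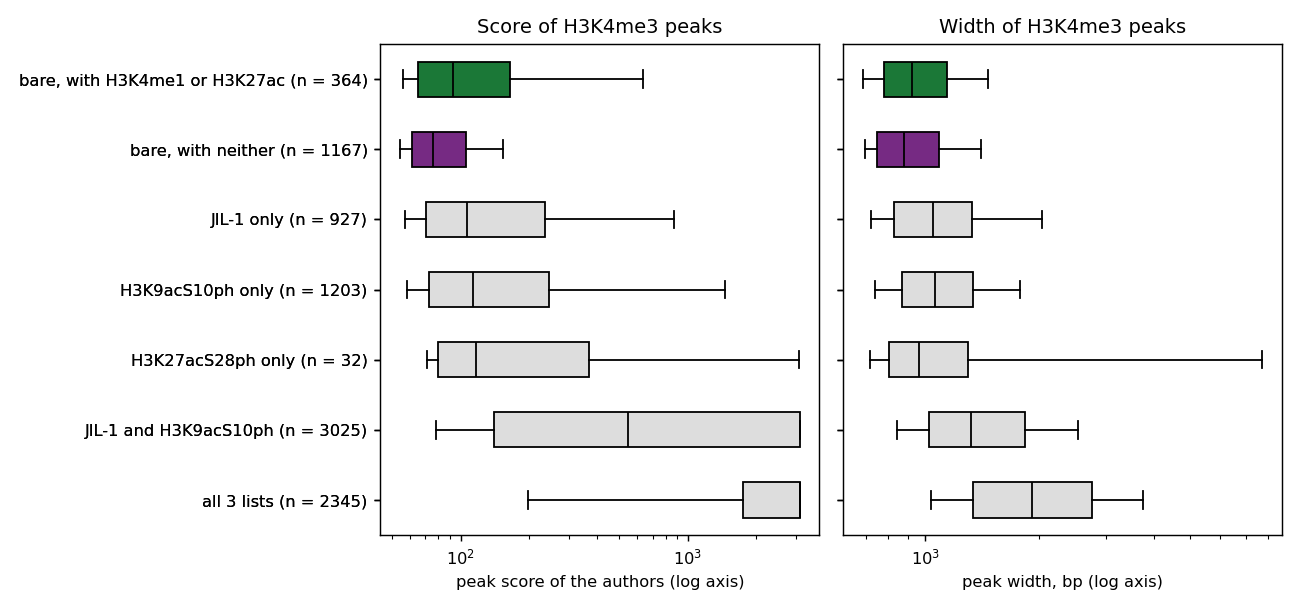
Score (left) and width in bp (right) of arm H3K4me3 peaks, both on log axes, by the lists that overlapped them; lines inside boxes are medians, boxes the middle 50% and whiskers the 10th to the 90th percentile. Both classes of bare peaks have the lowest median scores, 93.0 with H3K4me1 or H3K27ac and 75.4 with neither, while peaks with all 3 lists have their median at 3100, where scores pile up.

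The share of bare peaks fell through the score range of the H3K4me3 list. In the lowest decile by score 408 of 942 peaks were bare (43.3%, 40.2 to 46.5), in decile 4 it was 24.2%, in decile 6 it was 6.48% and in decile 7 it was 2.55%. Decile 8 held 3 bare peaks and decile 9 held 4. In the highest decile 0 of 942 were bare, which allows a share of up to 0.318% (3 counts of 942) or, by the Wilson interval, 0.406%. A score of 3100 fills decile 9 and runs into deciles 8 and 10, and equal scores were split by chromosome and position. The counts of deciles 8 to 10 therefore give no order by score among themselves. Of the 2551 arm H3K4me3 peaks that scored 3100 or more, 5 were bare. The classes thinned out at different scores. Peaks with neither mark numbered 328 in the lowest decile, 23 in decile 6 and 1 in decile 7, whereas those with H3K4me1 or H3K27ac numbered 80, 38 and 23 in the same deciles. The highest score of a bare peak with neither mark was 975. The score of 3100, reached or passed by 27.1% of all arm H3K4me3 peaks, was reached by 5 bare peaks, all of them with H3K27ac. In the highest score quartile 99.9% of the other H3K4me3 peaks had H3K27ac too.

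**Figure D2:**
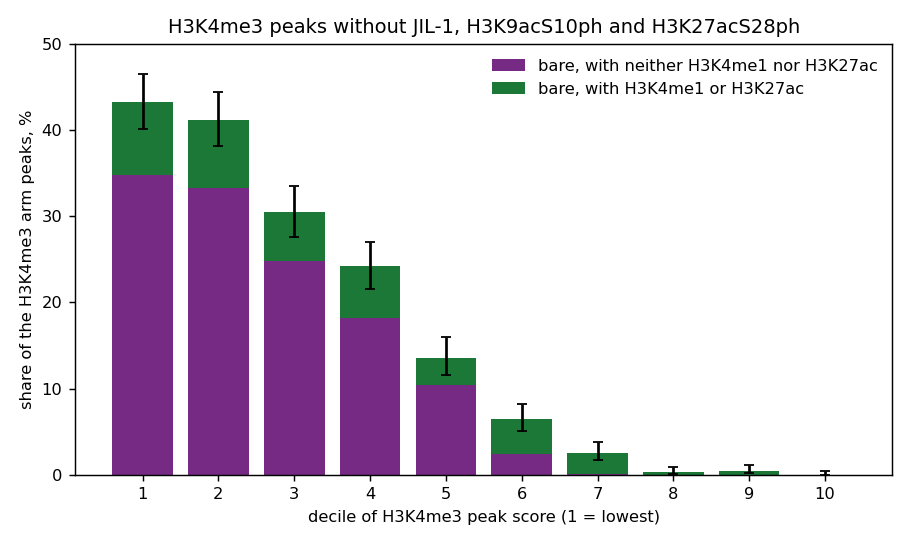
Share of arm H3K4me3 peaks that were bare, in % (y axis), in each decile of H3K4me3 peak score from the lowest to the highest (x axis), stacked by class; error bars are 95% Wilson intervals of the sum. The share falls from 43.3% in the lowest decile to 2.55% in decile 7, and bare peaks with neither mark are down to 1 peak in decile 7 and 0 above it. Equal scores of 3100 are split by position over deciles 8 to 10, so these bars give no order by score among themselves.

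The H3K4me1 and H3K27ac lists had no part in the choice of bare peaks, and both marks were far less frequent there. H3K27acS28ph, which was used for the choice, is itself acetylated at K27, so H3K27ac is not wholly apart from the choice. H3K4me1 overlapped 317 bare peaks (20.7%, 18.8 to 22.8), against 78.4% of the other H3K4me3 peaks (77.5 to 79.3), and 69% of all arm H3K4me3 peaks. The difference was -57.7 points (-59.9 to -55.4). H3K27ac overlapped 186 bare peaks (12.1%, 10.6 to 13.9), against 72.3% of the others (71.3 to 73.3) and 62.5% of all, a difference of -60.2 points (-62.0 to -58.2). With either mark counted, the shares were 23.8% of bare peaks and 81.8% of the others, and 72.3% of all arm H3K4me3 peaks. With every peak of every list replaced by 1000 bp around its midpoint, the differences were -26.3 points for H3K4me1 and -33.0 for H3K27ac. Counting error was smaller than the difference in each case. With 1 library per antibody, no test between preparations is possible.

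The shares were also lower within the 3 lower quartiles of score. In the lowest quartile by score, H3K4me1 overlapped 17.4% of 942 bare peaks and 54.1% of 1411 others, and H3K27ac 6.37% and 37.2%. The second quartile gave 20.5% of 497 bare peaks and 59.9% of 1856 others for H3K4me1, and 11.9% and 43.8% for H3K27ac. Median scores of bare and other peaks were 64.8 and 66.9 in the lowest quartile and 123 and 143 in the second. In the third quartile, which extends to 3100, 87 bare peaks remained, with a median score of 505 and a median width of 1034 bp, against 1230 and 1488 bp for the others, so that the groups were not of like score there. Of these 54.0% overlapped H3K4me1, against 87.7% of 2266 others, and 71.3% overlapped H3K27ac, against 89.1%. The differences for H3K4me1 in these 3 quartiles lay between -39.4 and -33.7 points. For H3K27ac the difference was -30.8 points in the lowest quartile (-33.7 to -27.8) and -17.8 in the third (-28.2 to -9.28). Only 5 bare peaks were in the highest quartile, of which 5 overlapped H3K27ac and 4 overlapped H3K4me1. Of the 2348 others there, 99.9% overlapped H3K27ac and 98.7% overlapped H3K4me1. Weighted over score and width quartiles together by the numbers of bare peaks, the differences were -37.2 points for H3K4me1 (-39.9 to -34.6) and -30.8 for H3K27ac (-33.1 to -28.6). By width, the differences were larger among wider peaks. H3K4me1 overlapped 17.9% of bare peaks and 59.7% of others in the narrowest quartile, and 25.4% of 71 bare peaks and 92.0% of 2282 others in the widest. The intervals of these shares overlapped between narrow and wide bare peaks (15.5 to 20.6 and 16.7 to 36.6). Median scores of bare and other peaks were 67.8 and 81.1 in the narrowest quartile and 214 and 3100 in the widest. The groups were therefore not of like score among wide peaks. With H3K4me3 alone cut to its upper 50% by score, which left 92 bare peaks, the differences were -37.9 points for H3K4me1 and -21.8 for H3K27ac.

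**Figure D3:**
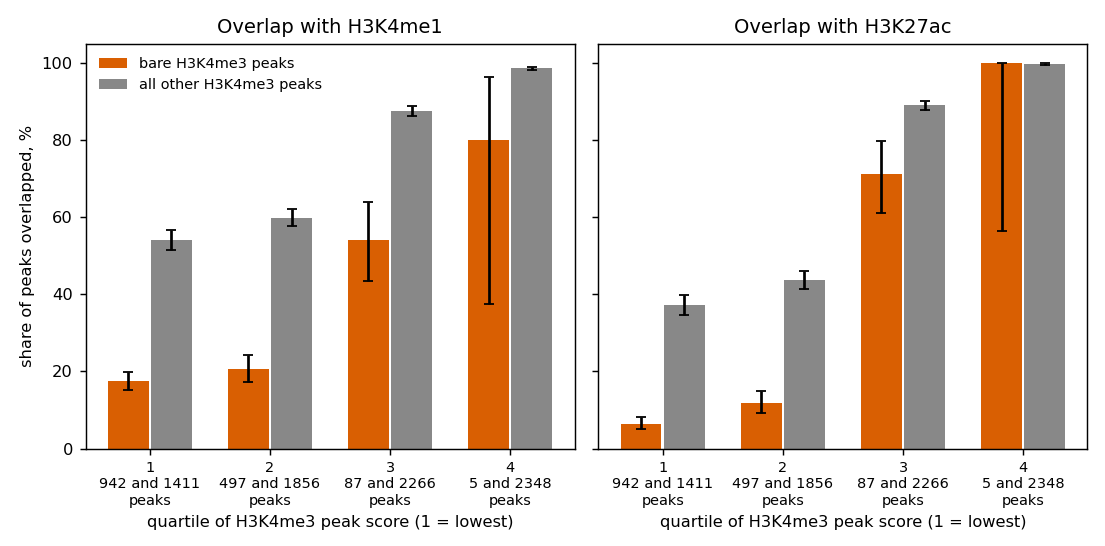
Share of H3K4me3 arm peaks that overlapped H3K4me1 (left) and H3K27ac (right), in % (y axes), for bare peaks and all other H3K4me3 peaks in each quartile of H3K4me3 peak score (x axes, with the numbers of peaks); error bars are 95% Wilson intervals. The bars of bare peaks are lower in the first 3 quartiles for both marks, and in the third H3K27ac reaches 71.3% of bare peaks, above H3K4me1 with 54.0%.

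In H3K4me3 peaks that touched a single list of the 3, the promoter and enhancer marks were more frequent. The 927 H3K4me3 peaks with JIL-1 as the sole list of the 3 had a median score of 107, and 42.3% of them overlapped H3K4me1 and 35.9% H3K27ac. Bare peaks differed from them by -21.6 points for H3K4me1 (-25.3 to -17.8) and by -23.8 points for H3K27ac (-27.3 to -20.3). The 1203 peaks with H3K9acS10ph alone of the 3 had a median score of 114, and 53.5% of them overlapped H3K4me1 and 38.5% H3K27ac. Against these the differences were -32.8 points (-36.2 to -29.3) and -26.3 points (-29.5 to -23.1). These differences are at like neither score nor width. Of the peaks with JIL-1 alone of the 3, 21.9% scored above the median of all arm H3K4me3 peaks. The share was 23.6% with H3K9acS10ph alone and 6.01% in bare peaks. Wider than the median of all arm H3K4me3 peaks were 31.2%, 31.3% and 16.7% in the same order. The comparison by score quartile that follows was not matched for width. Within the lowest score quartile, H3K4me1 overlapped 17.4% of bare peaks, 29.6% of peaks with JIL-1 alone of the 3 and 48.1% of those with H3K9acS10ph alone. H3K27ac overlapped 6.37%, 18.8% and 29.0% in the same order. In the same quartile, peaks with JIL-1 and H3K9acS10ph together reached 76.7% for H3K4me1 and 53.1% for H3K27ac. H3K27acS28ph alone of the 3 overlapped 32 peaks. The differences of bare peaks from these were -29.3 points for H3K4me1 (-45.8 to -12.8) and -34.7 for H3K27ac (-51.5 to -18.6), with intervals as broad as the small number allows.

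H3K4me1 without H3K27ac, a combination known from enhancers that are not active, was found at 178 bare peaks (11.6%, 10.1 to 13.3), against 9.42% of the others, a difference of 2.21 points (0.561 to 4.03). Over all arm H3K4me3 peaks the share was 9.77%. It was 12.2% of peaks with JIL-1 alone of the 3 lists (10.2 to 14.5) and 17.6% of those with H3K9acS10ph alone (15.6 to 19.9), so it was not particular to bare peaks. H3K27ac without H3K4me1 was found at 47 bare peaks (3.07%), against 3.32% of the others (-0.255 points, -1.12 to 0.802). Both marks together were found at 139 bare peaks (9.08%), against 69.0% of the others and 59.3% of all arm H3K4me3 peaks. Of the 3 combinations, this one carried nearly the whole difference. Looked at from the side of the combination, 19.3% of all arm H3K4me3 peaks with H3K4me1 and no H3K27ac were bare, and 2.49% of those with both. Of the H3K4me3 peaks with neither mark, 44.8% were bare.

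Among bare peaks, those with H3K27ac scored higher, as was the case among the other H3K4me3 peaks. Bare peaks with H3K27ac and no H3K4me1 had a median score of 147 (middle 50% 84.6 to 461), and those with both marks 137 (76.3 to 511). Bare peaks with H3K4me1 alone of the 2 had a median of 73.1 (59.5 to 104), close to the 75.4 (61.3 to 106) of those with neither. In the other H3K4me3 peaks the medians were 2599 with both marks and 469 with H3K27ac alone. They were 111 with H3K4me1 alone and 102 with neither, so the higher scores with H3K27ac were not particular to bare peaks. Above the median score of all arm H3K4me3 peaks stood 50 of the 139 bare peaks with both marks and 17 of the 47 with H3K27ac alone, against 1 of 178 with H3K4me1 alone and 24 of 1167 with neither. Widths differed less, with medians from 814 bp (H3K27ac alone) to 965 bp (both).

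Where a bare peak carried one of these marks, the mark covered most of its length in most cases. H3K4me1 covered a median of 89.4% of the 317 bare peaks it overlapped, and 132 of them (41.6%) lay wholly within H3K4me1, against 27.9% of the other H3K4me3 peaks with H3K4me1. Less than 50% was covered in 68 (21.5%), against 10.9% of the others. The bare peaks with H3K4me1 were narrower than the others with it (medians of 939 and 1452 bp), and a narrower peak fits within another more easily. H3K27ac covered 126 of 186 bare peaks wholly (67.7%), against 64.2% of the others. The H3K4me1 peaks that touched bare peaks were about as wide as those that touched other H3K4me3 peaks (medians of 1964 and 1961 bp) and scored lower (988 and 1588 within the H3K4me1 list). Many of these domains met the kinase or phosphoacetylation beyond the bare peak. Of the 323 H3K4me1 peaks touching a bare peak, 184 (57.0%) overlapped JIL-1, H3K9acS10ph or H3K27acS28ph elsewhere along their length, as did 107 of the 175 H3K27ac peaks (61.1%). Over all arm peaks of these lists the shares were 81.3% for H3K4me1 and 91.0% for H3K27ac, but they cannot be read against each other, because the part of a domain under a bare peak is without the 3 lists by the choice.

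Distances from bare peaks to the 3 lists used to choose them are given as a description. The 3 lists hold 12295 (JIL-1), 6873 (H3K9acS10ph) and 3223 (H3K27acS28ph) arm peaks, and the distances were not set against those of other arm positions. The distance to the nearest peak of the 3 lists, edge to edge, had a median of 1620 bp, with 66 bare peaks within 100 bp, 582 (38.0%) within 1000 bp and 130 (8.49%) beyond 10000 bp. It was 592 bp in bare peaks with H3K4me1 or H3K27ac and 2129 bp in those with neither. JIL-1, the list with the most peaks, was the nearest of the 3 for 823 bare peaks, H3K9acS10ph for 651 and H3K27acS28ph for 57. The median distance to each list was 2531 bp for JIL-1, 3482 bp for H3K9acS10ph and 13078 bp for H3K27acS28ph. Bare peaks with neither mark overlap no H3K4me1 or H3K27ac by definition, so their distances to these marks are descriptions too. The medians were 5006 bp to H3K4me1 and 8267 bp to H3K27ac. Of these bare peaks, 367 (31.4%) had no H3K4me1 within 10000 bp.

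Around their centres the classes differed in their surroundings. The lists compared here served to choose the bare peaks or their classes, so these values are descriptions. At 10 kb from the centre, towards higher coordinates, H3K4me1 covered 43.1% of positions beside bare peaks with H3K4me1 or H3K27ac, 23.1% beside those with neither and 39.0% beside the other H3K4me3 peaks. H3K27ac covered 32.4%, 17.3% and 30.6% there, and H3K9acS10ph 29.9%, 23.9% and 32.7%. For scale, H3K4me1 covered 21.9% of the arms, H3K27ac 15.4% and H3K9acS10ph 16.4%. Within 10 kb of the centre, 247 of the bare peaks with neither mark (21.2%) had no JIL-1 peak, against 16 (4.40%) of those with H3K4me1 or H3K27ac and 1.81% of the other H3K4me3 peaks. None of these shares is free of the choice of peaks, since bare peaks overlap no JIL-1 by the rule and most of the other H3K4me3 peaks overlapped it.

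**Figure D4:**
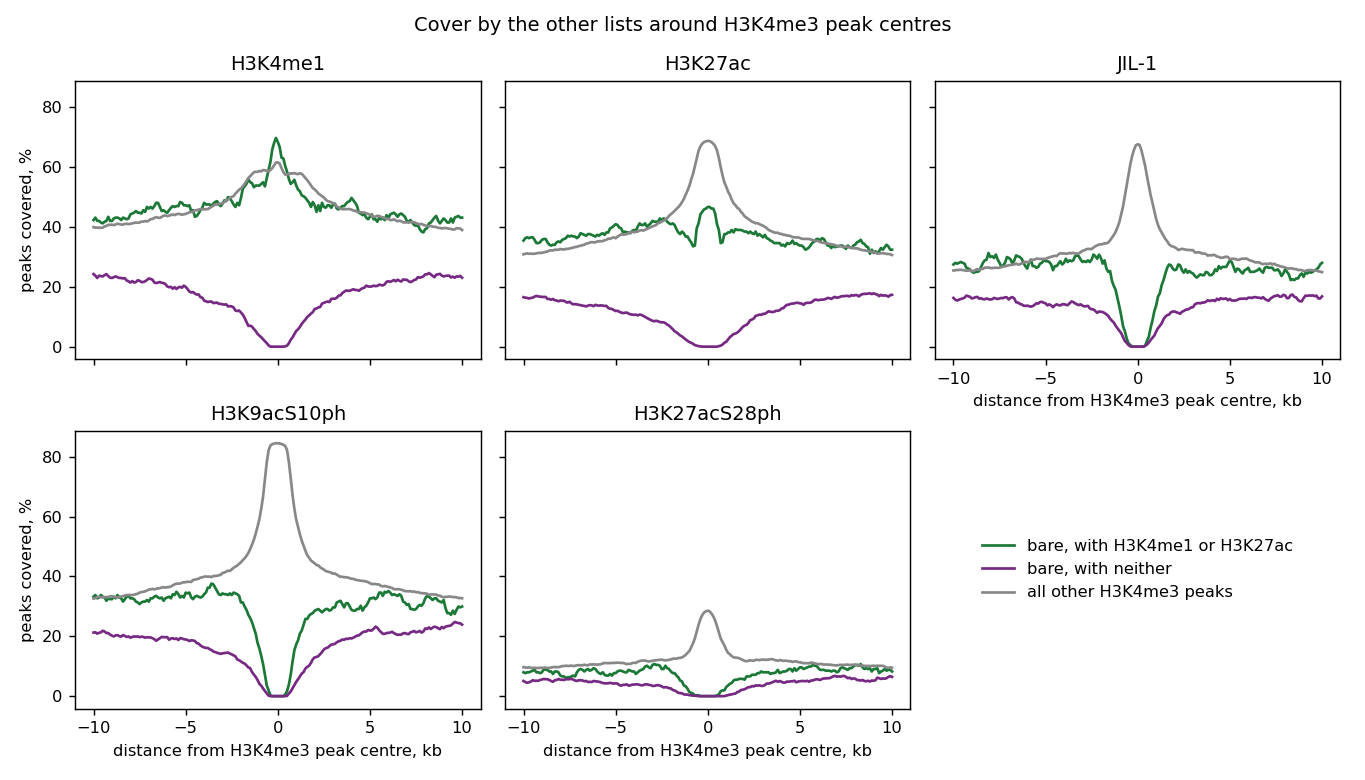
Share of H3K4me3 arm peaks covered by each other list, in % (y axes), at distances from the peak centre of up to 10 kb (x axes), for the 2 classes of bare peaks and all other H3K4me3 peaks. The gaps at the centre follow from how the peaks were chosen. Away from it the line of bare peaks with neither mark is the lowest for each of the 5 lists. All 5 lists served to choose the bare peaks or their classes, so the cover away from the centre is a description too.

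The limit of 1 bp separated peaks whose positions hardly differ. Just inside it, the bare peak on 2R from 11411091 to 11411817 adjoined a JIL-1 peak with no base between them, that on 3R from 19099827 to 19101199 lay 1 bp from H3K9acS10ph, and that on 3R from 25282022 to 25282670 lay 5 bp from JIL-1. Just outside it, an H3K4me3 peak at 2L:7781667-7782593 shared 1 bp with JIL-1. The next, at 2L:21956303-21957099, shared 4 bp with H3K9acS10ph, and the one at 3R:22125155-22125834 shared 5 bp with it. The scores of these 6 peaks ranged between 50.5 and 220. In all, 56 of the other arm H3K4me3 peaks overlapped the 3 lists by 100 bp or less.

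Bare peaks occurred on every arm. They made up 19.1% of the H3K4me3 peaks on 2L (17.2 to 21.2), 18.0% on 3L (16.4 to 19.8), 16.9% on 3R (15.4 to 18.5), 14.2% on 2R (12.8 to 15.8), 13.5% on X (11.9 to 15.2) and 13.0% on chromosome 4 (6 of 46, 6.12 to 25.7). Neighbouring arms in this order had overlapping intervals, and that of chromosome 4 overlapped all others. Without the 1 Mb stretch of 2L described below, 2L had 17.1% (228 bare peaks, 15.2 to 19.2), below 3L. There were 14.3 bare peaks per Mb on 3L, 13.5 on 2R and on 3R, 12.3 on 2L, 10.2 on X and 4.56 on chromosome 4. The share of bare peaks with H3K4me1 or H3K27ac ran from 21.0% (3R, 17.2 to 25.4) to 28.9% (2L, 23.9 to 34.4) on the 5 large arms, with overlapping intervals.

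Bare peaks with neither mark stood alone more often than other H3K4me3 peaks. The nearest other H3K4me3 peak lay at a median of 3082 bp from them, against 1018 bp for bare peaks with H3K4me1 or H3K27ac and 676 bp for the other H3K4me3 peaks. No other H3K4me3 peak lay within 10000 bp of 291 of them (24.9%), against 8.24% and 6.55% in the same order. At the same time bare peaks adjoined each other. Of the neighbours of bare peaks along the arm 27.7% were bare, against 14.1% of the neighbours of other H3K4me3 peaks. They formed 1107 runs of consecutive H3K4me3 peaks, of which 811 were a single peak and 28 held 4 or more (132 bare peaks).

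Several of the long runs lay near one end of 2L. The longest, on 2L from 651216 to 684816, held 8 bare peaks, 7 of them with neither mark, with widths of 1539 to 3914 bp and scores of 72.7 to 295. There were 5 runs of 6 bare peaks, and the first of them in chromosome order were at 2L:612061-639923 and 2L:755520-769966. All 12 bare peaks of these runs had neither mark, and those of the second covered 86.0% of its 14.4 kb. Of the 12 runs of 5 or more, 5 lay in the first 1 Mb of 2L.

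The same end of 2L had the highest H3K4me3 cover of the arms. Read depth and copy number of this stretch in Kc167 were not analysed here, and the widths, scores and runs given for it are to be read with that limit. Cut into 250 kb windows, the arms gave 477 windows with an H3K4me3 peak, and the 4 windows with the most H3K4me3 cover adjoined each other on 2L from 250001 to 1250000, with 43.0% to 49.9% covered, against a median of 10.7%. This 1 Mb held 56 bare peaks among 153 H3K4me3 peaks (36.6%), against 15.9% elsewhere on the arms. Its bare peaks had a median width of 2136 bp, against 878 bp for bare peaks elsewhere, and 29 of the 56 were wider than 2000 bp, as many as among the 1475 elsewhere. H3K4me1 or H3K27ac overlapped 5 of the 56 (8.93%), against 24.3% of bare peaks elsewhere. The other H3K4me3 peaks were lower there too, with 45 of 97 overlapped (46.4%), against 82.2% elsewhere. Great width was not limited to bare peaks there, since the other 97 H3K4me3 peaks of the stretch had a median width of 2109 bp, against 1332 bp elsewhere. The other 5 lists also covered more of the stretch than of the arms, by smaller factors, with JIL-1 over 19.6% of it (13.8% of the arms), H3K9acS10ph over 24.6% (16.4%), H3K27acS28ph over 8.98% (4.80%), H3K4me1 over 30.7% (21.9%) and H3K27ac over 23.4% (15.4%), against 45.6% (12.4%) for H3K4me3. The stretch was picked out after the values were seen.

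A second place rich in bare peaks was of the opposite kind. The window with the third highest number, on 2L from 10250001 to 10500000, held 17 bare peaks, all 17 wholly within H3K27ac and 8 of them with H3K4me1. They were narrow, from 637 to 993 bp, with a median score of 415 and a highest score of 2898, and 10 of the 17 scored above the median of all arm H3K4me3 peaks. All 51 H3K4me3 peaks of the window overlapped H3K27ac, and 35 of the 51 overlapped H3K4me1. H3K27ac covered 39.7% of the window (median of windows 14.3%, highest 49.7%) in more separate peaks than in any other window. JIL-1 covered 14.8% of it (13.8% of the arms) and H3K9acS10ph 14.0% (16.4%). This window, too, was singled out after its values were seen. Without it and the 2 windows on 2L with the most bare peaks, 23.3% of bare peaks overlapped H3K4me1 or H3K27ac, against 23.8% with them.

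**Figure D5:**
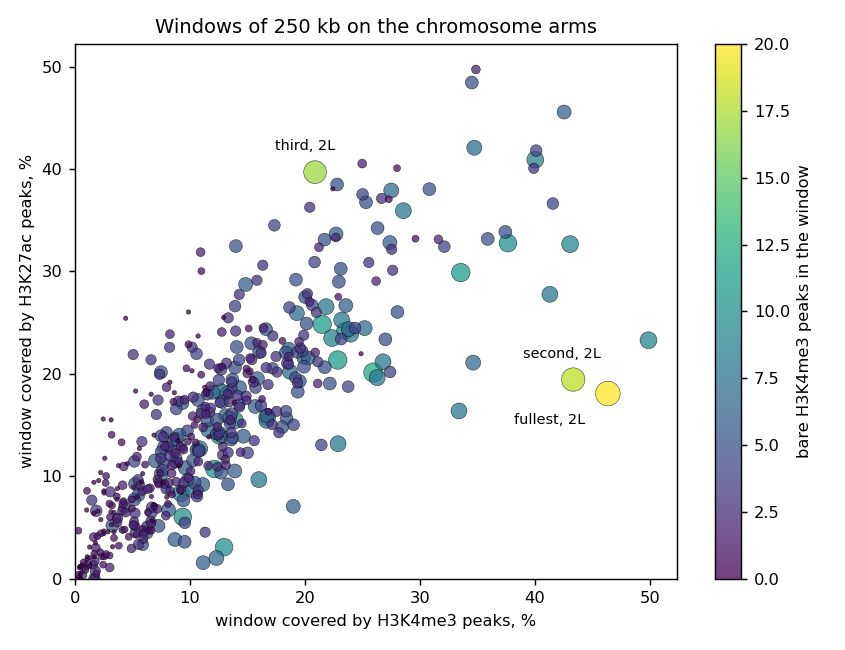
Windows of 250 kb on the arms, by the share covered by H3K4me3 peaks (x axis, %) and by H3K27ac peaks (y axis, %), with the number of bare peaks as colour and area of the points. The 2 fullest windows, with 20 and 18 bare peaks, have H3K4me3 over 46.3% and 43.3% and H3K27ac over 18.1% and 19.4%, whereas the third, with 17, has H3K27ac over 39.7% and H3K4me3 over 20.9%.

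The 5 highest-scoring bare peaks all carried H3K27ac, 4 of them over their full length. This was not particular to bare peaks, since 99.9% of the others in the highest score quartile overlapped H3K27ac. The peak on 3L from 3457032 to 3461098 lay wholly within H3K27ac, 640 bp from H3K4me1 and 4760 bp from JIL-1. A pair of neighbouring bare peaks, 2R:16212199-16214524 and 2R:16214533-16217942, carried H3K4me1 over 84.9% and 79.9% of their lengths and H3K27ac over 100% and 47.5%. JIL-1 was 2983 and 5317 bp away. The peaks 2R:9438695-9440202 and 3L:13990191-13991150 lay nearer to the kinase or phosphoacetylation, at 271 bp from H3K9acS10ph and 139 bp from H3K27acS28ph.

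The widest bare peak, on 3L from 648304 to 665714, extended over 17.4 kb with H3K4me1 over 82.8% and H3K27ac over 58.7% of it, and JIL-1 began 7293 bp away. It scored 2199. The next widest with H3K4me1 or H3K27ac were 3L:20410175-20417471, 3L:3461111-3468062, 2L:575597-581839 and 2L:1054847-1059421. The peak 2L:575597-581839 met its marks at the edge only, sharing 19 bp with H3K4me1 and 25 bp with H3K27ac.

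Among bare peaks with neither mark, the highest scores belonged to wide peaks. The first, on 2R from 8888252 to 8892091, scored 975 over 3840 bp. Those next in order, 2L:725280-730625, 2L:455352-458761, 2L:731519-737592 and 2L:947916-951444, scored 740, 642, 600 and 491 and all lay in the 1 Mb stretch described above. The 5 widest, up to 6074 bp on 2L from 731519 to 737592, lay in that stretch too. The 2 widest are also among the 5 highest by score, and the others were 2L:634720-639923, 2L:756245-761342 and 2L:796292-800897. The nearest H3K4me1 peak lay 42106 bp from 2L:725280-730625 and 48345 bp from 2L:731519-737592, and the nearest H3K27ac peak 79102 and 72135 bp from them.

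The bare peaks farthest from the kinase and phosphoacetylation were weak. They were 2L:12288693-12289469, which lay 51854 bp from the nearest of the 3 lists, 3L:23926107-23926802, 3L:23445971-23446721, X:5133354-5134222 and X:14261352-14262129. Their scores ran from 51.7 to 80.6 and their widths from 696 to 869 bp. The pair on 3L lay where H3K4me1 peaks had ended. The last H3K4me1 peak of 3L ended at 23273587, and between it and the end of the arm there were 15 H3K4me3, 34 H3K27ac and 33 JIL-1 peaks. Of the 13 bare peaks more than 100 kb from H3K4me1, 8 lay there, and 2 of these overlapped H3K27ac.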

How the data were processed

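ChIP-seq peaks were analysed for 6 antibodies in Kc167 cells, 1 library each, grouped by the antibody in the labels. Per the labels' protocols, cells were fixed with 1% formaldehyde for 10 min, chromatin was sonicated to between 200 and 1000 bp and libraries were size-selected at 200 to 300 bp. The submitters' processing notes name Bowtie 0.12.5. Per the peak names in the files, the caller was MACS. Its settings, any control library and the genome build were not stated. For each library the authors deposited a peak list with start, end and score. The deposited score is not defined and was taken as -10 times log10 of p, because the lowest values lie at 50 (a p of 1e-05); it was used only within a list.

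Bare peaks were H3K4me3 peaks on scaffolds other than U, Uextra and those ending in Het that shared no base with JIL-1, H3K9acS10ph or H3K27acS28ph. The choice used those overlaps, so distances to these 3 lists and shares that involve them are descriptions only. The same holds for widths, because wider peaks touch other lists more easily, and for scores, which rose with width. It also holds for the distances of bare peaks with neither mark to H3K4me1 and H3K27ac. Shares have 95% Wilson intervals and differences 95% Newcombe intervals, bare minus other peaks, called where they leave out 0. Shares with H3K4me1 and H3K27ac were also compared within quartiles of score and of width. In quartiles and deciles, equal values were split by chromosome and position. Regions named are the 5 highest-scoring and 5 widest bare peaks of each class, the 5 farthest from the 3 lists, the 3 longest runs (equal lengths in chromosome order) and 3 peaks on either side of the overlap limit. The bare peaks and the comparisons were chosen with earlier results of these data known. No genome or annotation of release 5 was at hand, so genes and sequences are not analysed here. The functions were tested on simulated peaks. Python 3.11.15, numpy 2.4.6 and pandas 2.3.3 were used.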

Additional observations from a re-analysis of the deposited data

How the results depend on the processing

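Main values (the number of bare peaks, their share with H3K4me1 or H3K27ac, and the differences from other H3K4me3 peaks in H3K4me1, H3K27ac, score and width) were recomputed under 7 planned settings. Added after seeing the data were leaving out the 3 windows with most bare peaks and, for H3K4me1 and H3K27ac only, weighting over score and width quartiles. The share of bare peaks on 2L without its 1 Mb stretch (17.1%, against 19.1%) was added too. Of 33 recomputed differences, 31 kept their sign with an interval that left out 0. These include all differences in H3K4me1 and H3K27ac, the lists not used for the choice. The differences in score and width counted among them are descriptions only. The difference in score was -0.522 points (-1.17 to 0.824) with every list cut to its upper 50% by score and -1.34 (-1.72 to 2.68) with H3K4me3 alone cut, where the median score is 3100 and only 62 peaks of 4706 lie above it. The number of bare peaks was 472 and 92 under these settings, 3347 with the upper 50% of the 3 excluding lists, and 949 when they had to lie at least 1000 bp from these lists. Their share with H3K4me1 or H3K27ac was 48.7%, 73.9%, 35.6% and 14.5% in the same order. Bare peaks are therefore a set that depends on how deep each list was called, and read depth is unknown. The difference in H3K27ac was -21.8 points with H3K4me3 alone cut. Widths gave no value with 1000 bp around midpoints, where all are equal. No paired analysis was possible because there was 1 library per antibody.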

Other observations

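Off the arms, 25 of 79 H3K4me3 peaks (31.6%) overlapped none of JIL-1, H3K9acS10ph and H3K27acS28ph. Of these, 0 overlapped H3K4me1, 2 overlapped H3K27ac and 23 overlapped neither.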
